A study of Mus musculus with 3 samples.

Results

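The mRNAs described here are the abundant transcripts that were far higher in the HuR immunoprecipitate than in the YB-1 immunoprecipitate of differentiating mouse muscle cells. They were chosen by their normalized counts in those libraries. Members had a mean of 1000 or more normalized counts over the HuR and YB-1 libraries and at least 5 times more in HuR than in YB-1. Of 15428 named rows in the table, 125 were kept. A further 16 genes past both thresholds, among them Myog and Actb, were left out by name, and 2 rows bore a date instead of a gene symbol. The cells were C2C12, a mouse myoblast line that fuses into multinucleated myotubes when serum is lowered, lysed at day 2 in medium with 2% horse serum. RNA was recovered from 500 µg of extract (RIP-seq, the sequencing of RNA that an antibody pulls down with its target protein) with anti-HuR, anti-YB1 or control IgG, with 1 library for each. The column names of all 3 libraries also end in siCtl, whose meaning is not stated. With 1 library per antibody there is no replicate, no difference has a replicate check, and every interval given covers counting error only.

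HuR, encoded by Elavl1, is an RNA-binding protein of the ELAV family that binds uridine-rich and AU-rich stretches, mostly in 3' UTRs, and is best known for stabilising its target mRNAs. It is required for myoblast differentiation, where Myog, Myod1 and Cdkn1a mRNAs are among its targets. YB-1, encoded by Ybx1, is a cold-shock domain protein that packages a broad range of mRNAs. The series asks which mRNAs these proteins bind in muscle cells.

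The HuR library held 24797504 reads, the YB-1 library 39112714 and the IgG library 10630155, recovered from the authors' normalized counts. Elavl1 mRNA stood at 13792 normalized counts in HuR, 2847 in YB-1 and 1666 in IgG, a HuR over YB-1 ratio of 4.84 that lies just under the threshold. Ybx1 mRNA stood at 36771, 44148 and 43225. Of 29 skeletal muscle markers in the table, 29 were detected in HuR, 28 in YB-1 and 29 in IgG, and their summed normalized counts were 903173, 1333880 and 1985300. The IgG library also held RNA that the others lacked. The 26 markers of other cell types summed to 24085 in IgG, against 203 in HuR and 242 in YB-1, and 20 of them were at 0 in HuR, 16 in YB-1 and 0 in IgG. In IgG the endothelial marker Pecam1 reached 1228 reads, against 0 in HuR and 1 in YB-1. The adipocyte marker Adipoq had 94 in IgG and 0 in both others. The part of this RNA in the ratios to IgG below was not tested.

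The 125 mRNAs took 7.24% of the HuR reads, 1.10% of the YB-1 reads and 1.10% of the IgG reads. These shares, like each HuR over YB-1 ratio below, were fixed by the choice of the genes and are a description. The ratio ranged from 5.03 to 13.2 with a median of 6.16, and only 4 mRNAs reached 10. At least 5-fold higher in HuR were 3.77% of the 3740 abundant genes and 4.81% of all 11868 genes with a mean of 10 or more. For 98 of the 125, both counting bounds lay at 5 or more. Just inside the fold were Rap2b (5.03), Luc7l2 (5.03) and C1d (5.04), and just outside were Zdhhc20 (4.996), Snrpb2 (4.996) and Rbms1 (4.99). Just inside the level were Pdzd8 (a mean of 1005), 2610001J05Rik (1017) and Ptbp2 (1050), and just outside were Prcp (995), Pdgfa (953) and Impad1 (919).

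**Figure D1:**
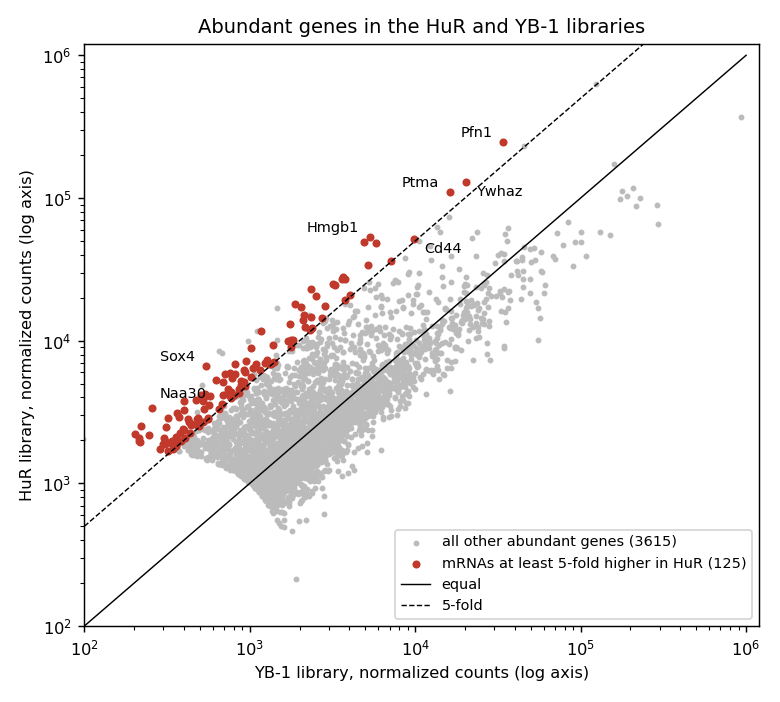
Normalized counts of each abundant gene in the YB-1 library (x) and the HuR library (y), on log axes, 1 point per gene. The 125 mRNAs (red) lie on or above the dashed 5-fold line from the lowest YB-1 counts up to Pfn1. The grey points above that line are the genes left out by name, and date-named rows are not drawn.

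Beyond the rule, the 3' UTRs of the mRNAs differed in make-up from those of the pool of other abundant genes. Genes with a HuR over YB-1 ratio from 3 to 5 came close to them, as given below. For each gene the transcript with the longest 3' UTR in GENCODE M21 (GRCm38) was used, and all 125 had one. Their 3' UTRs had a median length of 2140 nt (quartiles 1228 and 3006), against 1151 nt (496 and 2233) for the 3572 other abundant genes with a 3' UTR. T, the DNA letter for uridine, made up a median of 34.0% of the bases (quartiles 32.04 and 36.02), against 28.8% (25.57 and 31.96). A made up 27.7% against 25%. The set therefore differed from other abundant mRNAs more in T than in A.

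Runs of uridine showed the contrast most clearly. A stretch of 5 T (TTTTT, sense strand, overlapping matches counted) occurred a median of 13.1 times per kb of 3' UTR in the 125 mRNAs (quartiles 9.69 and 19.1), against 4.25 (0.955 and 8.81) in the other abundant genes. The mirror run AAAAA occurred 4.02 times per kb against 2.03. Each of the 125 held TTTTT, against 78.0% of the others, and 92.0% held TTTTTTT, against 47.1%. In the shortest annotated 3' UTR of each gene, TTTTT was present in 105 of 122 (86.1%) against 63.6%, and TTTTTTT in 68.0% against 33.4%. Per kb of the longest 3' UTR the difference was larger for T runs than for A runs. In shares, AAAAA differed about as much as TTTTT. It was present in 92.8% against 69.5% of the longest 3' UTRs and in 76.2% against 54.0% of the shortest.

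The AU-rich pentamer ATTTA, the core of many decay elements, was also denser, at 2.50 per kb against 1.12, and was present in 117 of 125 against 67.8% of the others. The pentamer TAAAT, which swaps A and T, was denser by a similar amount, at 2.46 against 1.31 per kb, and was present in 91.2% against 71.2%. The longer element TATTTAT was present in 53.6% against 27.5%. Matches to TGTANATA, the motif of Pumilio proteins, were present in 42.4% against 24.4%. All of these shares rise with the length of the 3' UTR, and a match is no measured binding site.

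To show the uridine-rich stretches themselves, the 30 bases of the 3' UTR with the most T were taken from some of the mRNAs of highest HuR over YB-1 ratio and of highest mean, in GRCm38, on the sense strand. Capitals mark runs of 5 or more T and the pentamer ATTTA. The window lies within the 3' UTR, in the annotated exons, of each gene.

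Naa30, chr14:49188670-49188699, plus strand: gTTTTTTcTTTTTTcTTTTTaactttattt

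Sox4, chr13:28950075-28950104, minus strand: ttttctttcTTTTTcttcgTTTTTTTTTTT

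Pabpn1, chr14:54897565-54897594, plus strand: tgtttggacttggttaTTTTTcccatgtgt

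Pfdn2, chr1:171359091-171359120, plus strand: tATTTAtattgtctattgtattttgTTTTT

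Hmgb1, chr5:149048401-149048430, minus strand: tttggTTTTTTgTTTTTTTTTTTTTTTctt

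Msi2, chr11:88344250-88344279, minus strand: TTTTTTTTcTTTTTTTTTgttttcTTTTTT

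Cfl2, chr12:54859471-54859500, minus strand: aagttgTTTTTTTgttgTTTTTTTTTTTTT

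Pfn1, chr11:70651874-70651903, minus strand: TTTTTTggtcTTTTTTTTTTTTTTTTTTTT

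Ptma, chr1:86530272-86530301, plus strand: tttgtaTTTTTTATTTAcattttatatttt

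Ywhaz, chr15:36771931-36771960, minus strand: tttaacTTTTTctttcTTTTTTTTTTTTTT

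Cd44, chr2:102813471-102813500, minus strand: TTTTTTTTTTattttgttttattttgtttt

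Most of these windows are runs of T broken by a few other bases, and only those of Pfdn2 and Ptma hold ATTTA. Pabpn1 is the exception, with 16 T in its richest window. Over the whole set the richest window held a median of 24 T, from 15 in Gpbp1 to 30 of 30 bases in Dpysl2, against a median of 19 in the other abundant genes. This gap was smaller among long 3' UTRs. The medians were 22 against 17 from 500 to under 1000 nt, 23 against 21 from 2000 to under 4000 nt and 25 against 23 from 4000 nt. A window with 20 or more T was found in 120 of the 125 (96.0%), against 40.7% of the others, with length not held. Short 3' UTRs could carry such a stretch: Pfn1 has the shortest 3' UTR of the set, 274 nt, no ATTTA, and 27 T in its window.

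The same features changed step by step over all abundant genes with the HuR over YB-1 ratio. TTTTT per kb had a median of 0 in the 181 genes with a ratio under 0.5, 1.90 between 0.5 and 1, 6.24 between 1 and 2, 9.03 between 2 and 3, 10.9 between 3 and 5 and 13.1 in the 125 mRNAs. AAAAA per kb went from 0 through 1.07, 2.81, 3.58 and 3.95 to 4.02. The share of T went from 26.1% to 34.0% and that of A from 25.1% to 27.7%, and the lowest A was 24.0%, between 0.5 and 1. In the class from 3 to 5, the median 3' UTR was 2093 nt, ATTTA was present in 90.3% and TTTTTTT in 90.7%. A and T made up a median of 50% of the coding regions in that class. The 125 mRNAs stood at the end of a gradient rather than apart from it. Genes are not replicates, and no test was made of these medians.

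**Figure D2:**
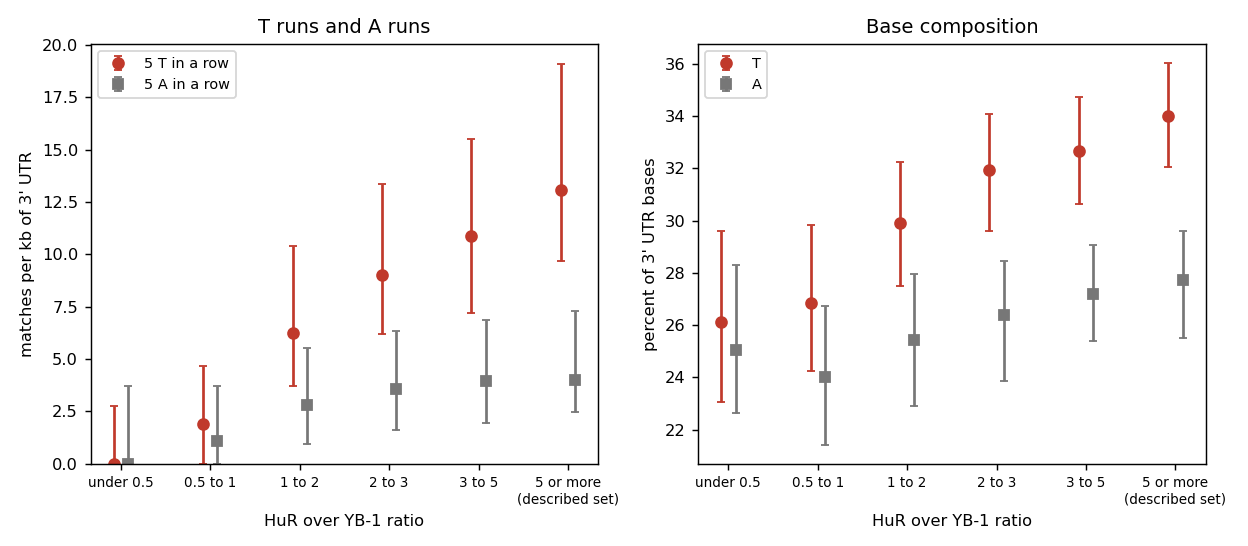
Matches of 5 T or 5 A in a row per kb of 3' UTR (left) and percent of T and A in the 3' UTR (right) for abundant genes in classes of HuR over YB-1 ratio. Points are medians over genes and bars run from the lower to the upper quartile. T runs go from a median of 0 to 13.1 per kb, A runs from 0 to 4.02.

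The difference in T runs was present in each class of 3' UTR length. In 3' UTRs from 500 to under 1000 nt the median of TTTTT per kb was 15.8 for 21 members of the set and 3.68 for 721 other abundant genes. It was 15.1 (29 genes) against 4.98 (901 genes) from 1000 to under 2000 nt, 11.3 (49) against 5.50 (781) from 2000 to under 4000 nt, and 11.3 (20) against 6.07 (268) from 4000 nt. Under 500 nt there were only 6 members, with 28.8 against 0. Abundant mRNAs with YB-1 at least 2-fold above HuR, a comparison chosen after the values were seen, as were the AAAAA and TAAAT counts, lay at the other end, with a median 3' UTR of 333 nt, 26.1% T and a median of 0 for TTTTT per kb over 181 genes.

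**Figure D3:**
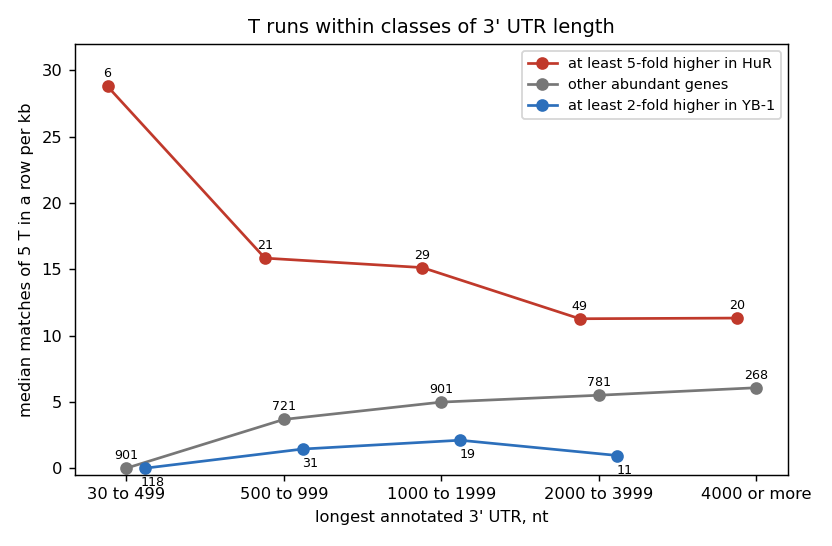
Median matches of 5 T in a row per kb of 3' UTR, by class of 3' UTR length, with the number of genes beside each point. Red is the set at least 5-fold higher in HuR, grey the other abundant genes, and blue those of them at least 2-fold higher in YB-1 (a class with only 2 genes is not drawn). Red lies above grey in each class.

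The coding regions were shorter and also richer in A and T. Their median length was 915 nt against 1278 nt for the other abundant genes, and A and T made up 51.3% against 46.3%. The whole transcripts were of similar length, with a median of 3288 nt against 3066 nt. Within the 125 mRNAs, the HuR over YB-1 ratio had a Spearman rho of 0.20 with the percent of T, 0.18 with TTTTT per kb and -0.02 with 3' UTR length (across genes, which share the same libraries).

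By role, the largest groups encoded RNA-binding, nuclear, transcriptional, secretory and cell-surface proteins. Of the 125, 114 were placed in 8 roles from general knowledge after their values had been seen, so the roles describe the set and are no test. The ratio differed little between roles, with medians from 5.92 to 7.23.

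RNA-binding and RNA-processing proteins made up 19 members. Pabpn1, the nuclear poly(A)-binding protein that sets poly(A) tail length, stood at 49093 normalized counts in HuR, 4916 in YB-1 and 3844 in IgG. That was 9.99-fold higher in HuR than in YB-1 (95% counting interval 9.77 to 10.2). Msi2, a translational regulator of the Musashi family, stood at 23095, 2354 and 5789, a ratio of 9.81. Its 3' UTR of 5310 nt holds 132 matches of TTTTT. Fmr1, which encodes the translational regulator lost in fragile X syndrome, stood at 1995, 216 and 858 (ratio 9.25). Mbnl1, a splicing factor of muscle development, stood at 28146, 3666 and 8924 (ratio 7.68). In the last 3, IgG lay between HuR and YB-1, and for Pabpn1 it was the lowest of the libraries. The splicing regulator Qk differed from these, with 14590 in HuR, 2360 in YB-1 and 16464 in IgG. Pcbp2, a poly(C)-binding protein, stood at 36026, 7129 and 18068, and Alyref, an mRNA export adaptor, at 13161, 1744 and 874. Rc3h2, a roquin that promotes mRNA decay, holds 25 ATTTA in a 3' UTR of 5331 nt and had a ratio of 6.36. The others in this role were Rbms3, Nufip2, Tsen34, Myef2, Fyttd1, Cirbp, Rsl24d1, Larp4, Ptbp2, C1d and Luc7l2, with ratios between 5.03 and 6.66.

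Chromatin and nuclear proteins made up 14 members. Hmgb1, an abundant DNA-bending protein, stood at 53004 in HuR, 5323 in YB-1 and 11187 in IgG, a ratio of 9.96 (9.75 to 10.2). Its relative Hmgb2 stood at 5490, 784 and 317 (ratio 7.005), and the nucleosome-binding Hmgn2 at 19262, 3792 and 4934 (ratio 5.08). The order of the libraries was not the same, since IgG was between the others for Hmgb1 and Hmgn2 and lowest for Hmgb2. Nucks1, a nuclear phosphoprotein, stood at 18159, 1883 and 2588 (ratio 9.64). Ptma, which encodes the acidic nuclear protein prothymosin alpha, stood at 109947, 16211 and 5952 (ratio 6.78). Smarca5, the ATPase of ISWI remodellers, had 2541 in HuR and 2203 in IgG against 496 in YB-1. Annotated pseudogenes carry the names of 11 of the 125 genes, with 10 for Hmgb1, 6 for Selk and 1 each for Ptma and Hmgn2, so their counts are uncertain where reads could be split between copies.

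Transcription factors and their partners made up 15 members. The SoxC factors Sox4 and Sox11, regulators of progenitor cells, were both in the set. Sox4 stood at 6648 in HuR, 543 in YB-1 and 782 in IgG, a ratio of 12.2 (11.5 to 13.1), and Sox11 at 27205, 3744 and 2425, a ratio of 7.27. Sox9, a chondrogenic regulator, stood at 5853, 820 and 613 (ratio 7.13). For all of these Sox genes HuR was far above both other libraries. The Wnt effector Lef1 stood at 2695, 525 and 103, so that YB-1 too was above IgG. Sp3 (2390, 396 and 3066) and Zeb2 (2610, 439 and 2712), both zinc finger factors, were highest in IgG, but for Zeb2 HuR was above IgG when scaled to total reads or with the median of all genes at 0. Zeb2 held the most ATTTA of the set, 26 in a 3' UTR of 4941 nt. Cebpb, Gpbp1, Foxp1, Smad1, Zbtb18, Gtf2a1, Tbpl1, Tcea1 and Tsc22d3 had ratios between 5.05 and 8.20.

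Cytoskeletal proteins were few but included the most abundant member. Pfn1, the actin-monomer-binding protein profilin, stood at 245299 in HuR, 34080 in YB-1 and 13557 in IgG, a ratio of 7.20 (7.14 to 7.26). Per kb of transcript, its HuR level of 284900 normalized counts was the highest of the 125, followed by 90417 for Ptma and 39487 for Ywhaz. Cfl2, the actin-severing cofilin of muscle, stood at 48329, 5820 and 16306 (ratio 8.30). Marcks, which links actin to the membrane, stood at 20656, 2509 and 2304 (ratio 8.23). IgG was thus lowest for Pfn1, above YB-1 for Cfl2 and close to YB-1 for Marcks. Mzt1, Katnbl1, Cep170 and Dpysl2, which bind or organise microtubules, had ratios between 5.72 and 9.42.

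Cell-surface and signalling proteins made up 16 members. Ywhaz, the 14-3-3 zeta adaptor, stood at 129832 in HuR, 20390 in YB-1 and 8589 in IgG (ratio 6.37). Cd44, the hyaluronan receptor, stood at 51926, 9786 and 2894 (ratio 5.31), and the chemokine receptor Cxcr4 at 8924, 1013 and 319 (ratio 8.81). In these the order was HuR, then YB-1, then IgG. Cdkn1b, which encodes the cell cycle inhibitor p27, stood at 6273, 921 and 1179 (ratio 6.81). Ppp1cb, a catalytic subunit of protein phosphatase 1, stood at 13864, 2108 and 10480, with IgG close to HuR. Others in this role, among them Ptp4a1, Cd9, Sdc4, Gja1, Rgmb, Phlda1, Pafah1b2, Tpbg, Strn3 and Rap2b, had ratios between 5.03 and 8.85.

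Folding, secretion and membrane traffic gave 21 members, with ratios between 5.08 and 11.5. Tmx3, a thioredoxin-related disulfide isomerase of the endoplasmic reticulum, stood at 2536 in HuR, 221 in YB-1 and 695 in IgG. The prefoldin subunits Pfdn2 and Vbp1, which hand nascent actin and tubulin to the chaperonin, had ratios of 9.97 and 8.20. Derl2, a factor of the degradation pathway of the endoplasmic reticulum, had a ratio of 8.46 and Ptges3, the Hsp90 co-chaperone p23, one of 7.54. The cargo receptor Tmed2 stood at 20960, 4057 and 5170 and the vesicle SNARE Vamp3 at 7135, 1406 and 1453. In all of these IgG was nearer to YB-1 than to HuR.

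The ubiquitin system and autophagy gave 10 members. The E3 ligase Ube3a, lost in Angelman syndrome, stood at 2222 in HuR, 202 in YB-1 and 2205 in IgG, a HuR over YB-1 ratio of 11.0 (9.88 to 12.3). With the authors' scaling, the counting interval of its HuR over IgG ratio included 1 (ratio 1.01, 0.936 to 1.09). Scaling to total reads raises each HuR over IgG log2 ratio by 0.190, which puts this interval above 1. Siah1a, an E3 ligase, stood at 3097, 365 and 422 (ratio 8.49), and Vhl, which targets hypoxia-inducible factors, at 3941, 768 and 275 (ratio 5.13). HuR was the highest library for both. Enzymes gave 12 members. Naa30, the catalytic subunit of an N-terminal acetyltransferase, had the highest HuR over YB-1 ratio of the set, 13.2 (11.99 to 14.5), at 3402 in HuR, 258 in YB-1 and 746 in IgG. Naa50, another N-terminal acetyltransferase, stood at 15082, 2121 and 8135 (ratio 7.11). Ugcg, which makes glucosylceramide, stood at 34163, 5159 and 2423 (ratio 6.62). Lix1 (2064, 213 and 106) was among the 11 members placed in no role.

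**Figure D4:**
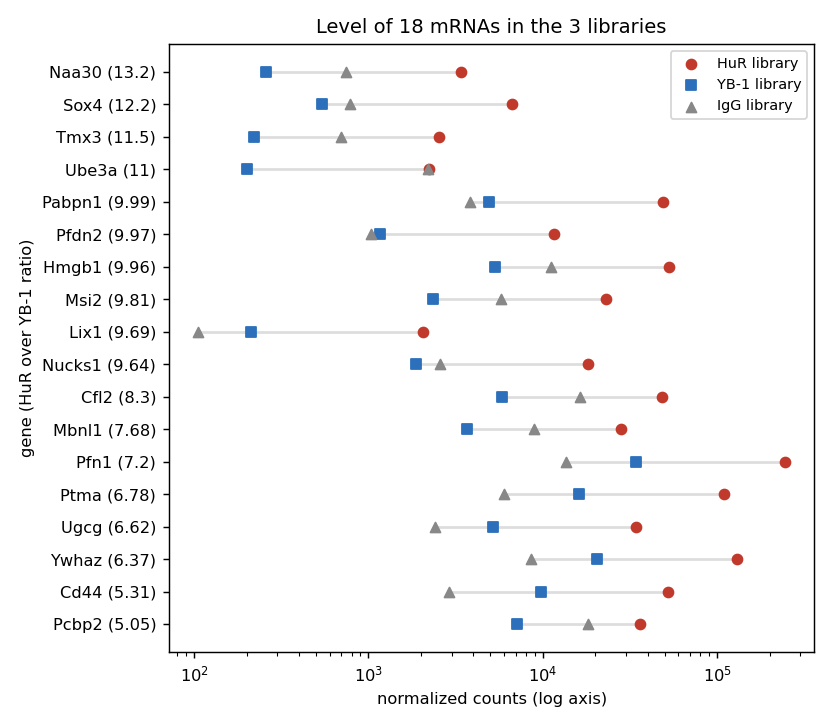
Normalized counts (log axis) in the HuR (circle), YB-1 (square) and IgG (triangle) libraries for the 18 mRNAs with the highest ratio or the highest mean, 1 library per point, ordered by the ratio given beside each name. HuR is the highest point for all 18, with IgG touching it for Ube3a, and IgG lies on either side of YB-1.

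The IgG library took no part in the choice of the genes, but both ratios to it share a library with the rule, so they are given as values. HuR was at least 2-fold higher than IgG for 109 of 125 mRNAs and at least 2-fold lower for 0. Over all 13024 genes 18.9% passed 2-fold upward and 31.1% downward, and over the 3740 abundant genes 29.1% and 10.2%. The median fold of HuR over IgG was 5.57 (a log2 ratio of 2.48, against -0.16 over all genes). YB-1 was at least 2-fold higher than IgG for 21 and at least 2-fold lower for 37. Over all 13022 genes 17% were higher and 32.8% lower, and over the abundant genes 24.2% and 12.9%. For YB-1 over IgG the log2 ratio had a median of -0.21 in the set and -0.17 over all genes, and the first turned to 0.02 when the libraries were scaled to total reads.

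These counts depended on the scaling. With the median of ribosomal protein genes set to 0, the median of all genes moved by -0.49 for HuR over IgG and by -1.14 for YB-1 over IgG. The members of the set at least 2-fold higher in HuR than in IgG then numbered 97, against 11.3% of all genes. Those in YB-1 over IgG became 1 higher and 78 lower (0.8% and 62.4%). Over all genes these shares were 2.24% and 58.7%, and over the other abundant genes 1.53% and 39.8%. Of all genes past 2-fold, the share that was higher was 37.8% for HuR over IgG (21.7% after that recentring), 34.1% for YB-1 over IgG (3.68%) and 64.4% for HuR over YB-1 (90.3%). Scaling to total reads moved it for YB-1 over IgG to 44.5%.

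The furthest above IgG was Pcyox1l, with 5872 normalized counts in HuR, 708 in YB-1 and 165 in IgG, where HuR was 35.5-fold higher than IgG (28.2 to 45.5, from 72 IgG reads). Next were Cxcr4 with 28.0-fold (23.7 to 33.3), Lef1 with 26.1-fold (19.5 to 35.9), 0610007P14Rik with 22.9-fold and Phlda1, a pleckstrin-homology protein, with 20.1-fold. In each of these 5 the YB-1 library was also more than 2-fold above IgG, from 2.84-fold for 0610007P14Rik to 5.09-fold for Lef1. At the other end, Sp3, Qk, Luc7l2 and Zeb2 were highest in IgG, with HuR over IgG ratios of 0.780, 0.886, 0.927 and 0.962. For Zeb2 the counting interval of 0.900 to 1.03 includes 1. When scaled to total reads only Sp3 of these stayed below IgG, and with the median of all genes at 0 Sp3 and Qk did. Their YB-1 over IgG ratios were 0.129, 0.143, 0.184 and 0.162. IgG lay between HuR and YB-1 for 66 mRNAs, was lowest for 55 and highest for 4. It was lowest for 64 when scaled to total reads, for 59 with the median of all genes at 0 and for 16 after ribosomal centring. Each scaling moves all genes alike, and its counts over other genes were not made. With the authors' scaling, IgG was between for 19.8% of the other abundant genes, lowest for 55.6% and highest for 24.6%. A gap of 5-fold leaves more room between the libraries.

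With the authors' scaling, the mRNAs where YB-1 lay under IgG had longer 3' UTRs than those where it lay above. The 37 with YB-1 at least 2-fold under IgG had a median 3' UTR of 2892 nt (quartiles 2256 and 3930), and the 21 at least 2-fold over it 1287 nt (666 and 1948). The percent of T was similar, at 34.9% and 33.6%, and that of A was 29.1% and 24.8%. Across the 125, 3' UTR length had a Spearman rho of -0.43 with YB-1 over IgG and of -0.41 with HuR over IgG, from the same IgG library. Other features went along with YB-1 over IgG as closely, with a rho of -0.45 for transcript length, -0.47 for the percent of A in the 3' UTR and -0.47 for the percent of A and T in the coding region. Whole transcripts had medians of 4487 nt and 2320 nt in these classes and coding regions 1089 nt and 774 nt. Among RNA-binding and RNA-processing genes YB-1 was at least 2-fold under IgG for 10 of 19 and over it for 0, and among cell-surface and signalling genes for 2 of 16 and 5. Over all genes the shares were 32.8% under and 17% over, over the abundant genes 12.9% and 24.2%, and over the 125 mRNAs 29.6% and 16.8%. These differences between roles were not tested, and 3' UTR lengths in the same classes were not taken over other abundant genes. All these classes use the authors' scaling. After ribosomal centring, YB-1 was at least 2-fold over IgG for 1 of the 125 and at least 2-fold under it for 78. For the 125 mRNAs, shrunken log2 fold changes between YB-1 and IgG in the authors' deposited table ran from -2.02 for Ube3a to 1.01 for Lef1. None passed an adjusted p of 0.05 (DESeq2, lowest 0.845). Under an unadjusted p of 0.05 were 0 of the 125, against 213 of the 15403 rows without a date name, also a small share. With 1 library per antibody, those p-values hold no spread between replicates.

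**Figure D5:**
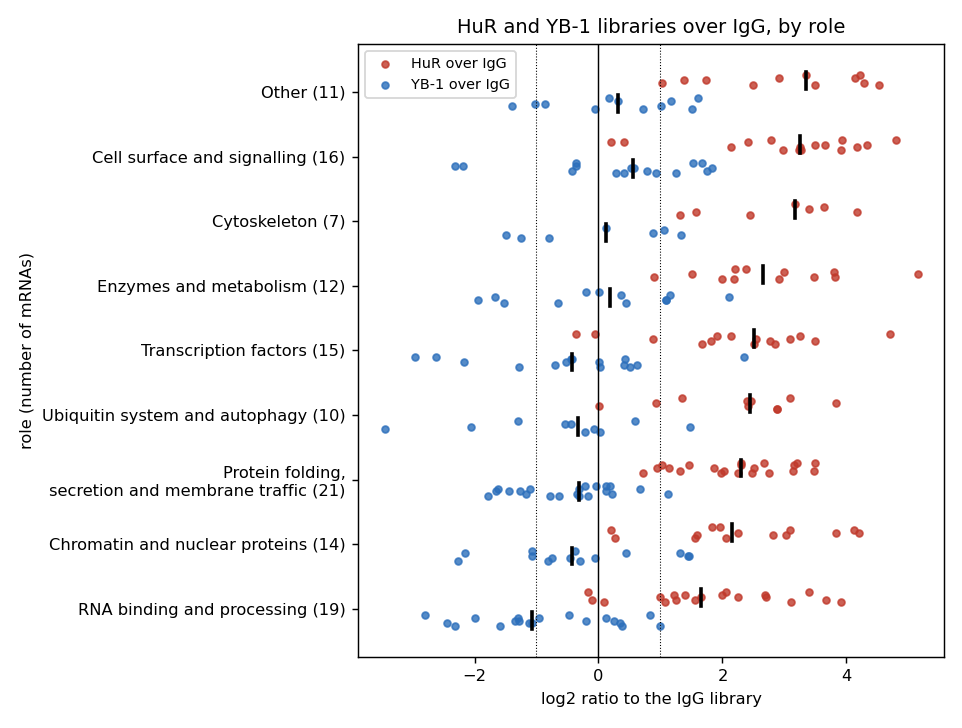
Log2 ratio of the HuR library (red) and the YB-1 library (blue) to the IgG library for each of the 125 mRNAs, by role. Short black bars are medians and dotted lines mark 2-fold. Red points lie mostly right of the 2-fold line, while blue points fall on both sides of 0. The lowest blue median is that of RNA binding and processing, and the lowest single blue point is Ube3a.

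Genes of the same classes outside the set were counted in lists written with earlier results of these data known. In the list of RNA-binding proteins, the HuR level was 2-fold or more above YB-1 for 46 of 83 genes and as far below it for 1 (median log2 ratio 1.21). Over all 11868 genes 19.3% were higher and 10.6% lower, with a median of -0.06. The list holds 10 of the set, and of the remaining 73 genes 36 passed 2-fold upward and 1 downward (median 0.9992). Transcription factors without their 7 members had 39 of 111 higher and 5 lower (median 0.64), and reported HuR targets without their 5 (Ptma, Hmgb1, Pcbp2, Marcks and Cdkn1b) 9 of 37 higher and 1 lower (median 0.68). Chromatin regulators without their 4 had 20 of 68 higher and 2 lower (median 0.46).

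The other lists had medians on both sides of that of all genes. Membrane traffic genes without their 4 members had 17 of 91 higher and 1 lower (median -0.09), and actin regulators without Pfn1, Cfl2 and Marcks 12 of 63 higher and 2 lower (median -0.05). Skeletal muscle markers had 3 of 29 higher and 2 lower, with a median of -0.33, and no marker was in the set. Myog, which the rule left out by name, passed both thresholds with a ratio of 5.03. Ribosomal protein genes had 0 of 80 higher and 27 lower, with a median of -0.71. Protein kinases had no member in the set, with 32 of 85 higher and 3 lower (median 0.50). Cleavage and polyadenylation factors (median 0.48) and apoptosis regulators (0.21) had none either. Without Smad1, TGF-beta, BMP, Notch and Wnt genes had 22 of 58 higher and 2 lower (median 0.68), and small GTPases without their 2 members 23 of 66 higher and 4 lower (median 0.58). The remaining medians, members of the set left out, were 0.33 for 6 14-3-3 genes, 0.16 for ubiquitin ligases and deubiquitinases, 0.05 for nuclear transport and -0.03 for protein phosphatases. Only 3 of the markers of other cell types had a mean of 10 or more.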

How the data were processed

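The submitters' processing notes name mm10 (GRCm38), DESeq2, HTSeq 0.6.1 and TopHat2 2.0.10. Neither parameters nor the use of strand are given in the sources used, so reads of overlapping genes cannot be assigned with certainty (47 of the 125 genes share an exon with another annotated gene, 36 of them on the other strand). The authors' deposited table gives a signal per gene and library (read counts divided by a size factor per library). For YB-1 over IgG, the authors' deposited DESeq2 columns also hold log2 fold changes with standard errors, a Wald score, and a p-value with its adjusted value. Whole reads were recovered from the deposited signal (100% of values whole within 0.01 read). The 25 date-named rows were left out of ratios, and libraries are compared without a count model, since 1 library per antibody leaves no spread to fit.

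A library at 0 was set to 3 reads, and pairs with 3 or fewer in both were given no ratio. Backgrounds were taken over genes whose mean reached 10. Ratios carry exact 95% Clopper-Pearson intervals, for counting error only, because each antibody has 1 library. PCR copies were not marked by molecular identifiers, so reads may not be independent and these intervals may be too narrow. 3' UTRs came from GENCODE M21 basic coding transcripts, with at least 30 nt. Symbols matched for 15269 of 15403 genes. Calculations used Python 3.11.15, pandas 2.3.3 and scipy 1.17.1, and were tested on simulated data. The members, lists and roles were chosen with earlier results of these data known. Named were the members with the 10 highest ratios, 10 highest means, 5 highest and 5 lowest HuR over IgG ratios and 5 highest counts of ATTTA, 2 per list and 3 at the threshold. Others were named by role after their values were seen. Alternatives changed the scaling, the fold, the filter, the transcript and the motif. A few genes and sequence windows are not reported here.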

Additional observations from a re-analysis of the deposited data

How the results depend on the processing

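No paired analysis was possible because each antibody has 1 library, and no replicate could be left out. Applying the rule after scaling to total reads gave 108 genes, 108 of them shared with the 125, and 148 with the median of all genes at 0, 125 of them shared. Ribosomal centring raises every HuR over YB-1 log2 ratio by 0.713, so more genes would pass, but they were not counted. Abundant genes with a ratio from 3 to 5 numbered 323, so the size of the set depends on the scaling. With ribosomal protein genes centred at 0, the median log2 ratio of the set was 3.34 for HuR over YB-1, 1.99 for HuR over IgG and -1.35 for YB-1 over IgG, against 2.62, 2.48 and -0.21. The median of YB-1 over IgG turned to 0.021 when scaled to total reads. The members with YB-1 over IgG of 2-fold or more went from 21 to 1 and those lower from 37 to 78 after ribosomal centring. Of all genes, 2.24% were then higher and 58.7% lower. At a 4-fold threshold, without that centring, the counts were 2 and 12, and the shares of all genes were not counted. With the shortest 3' UTR per gene, the median length was 1071.5 nt for the set and 548 nt for the other abundant genes, and T made up 34.5% and 28.3%. ATTTA was then present in 77.0% and 52.4%, at a median of 2.27 and 0.561 per kb, and TTTTT had a median of 12.5 and 2.92 per kb. Among the gene lists, the median of apoptosis regulators turned from 0.21 to -0.26 over genes with a mean of 1000 or more. Rescaling adds the same amount to every log2 ratio of a comparison, so the shifts with scaling follow from it. The cause of the shifts with transcript and filter was not tested. Depth limits ratios to IgG most, where the fewest reads for a member were 45.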
